A study of Mus musculus with 12 samples.

Results

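The genes described here are 9 enzymes that reduce aldehydes, ketones and quinones: the carbonyl reductases Cbr1 and Cbr3, and the aldo-keto reductases Akr1b3, Akr1b7, Akr1b8, Akr1c12, Akr1c13, Akr1c14 and Akr1c19. They were taken by symbol, 9 of 24391 symbols in the deposited files, and 9 of 9 passed the filter on low values that left 12052 genes to test. Messenger RNA was sequenced from colon epithelial cells of C57BL/6 mice at 18 weeks of age, in 12 libraries. The control group had 4 libraries, the AOM/DSS group had 4, and the group given AOM and DSS and treated with curcumin had 4 and is called curcumin below. AOM (azoxymethane) is a carcinogen, DSS (dextran sulfate sodium) inflames the colon, and curcumin is a polyphenol of turmeric. The labels give no dose, no route and no time of treatment, and name no genetic change in any group. The cells were scraped from the colon after its proximal segment and the tumours of its right portion had been cut away, and the scrapings were spun slowly and washed to lower their blood content. Nothing in the labels ties a library to an animal of its own, so p-values measure only the spread between these samples, which may be technical.

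Carbonyl reductases are short-chain dehydrogenases, and aldo-keto reductases form a separate enzyme family with a barrel-shaped fold. Both draw hydride mainly from NADPH to turn a carbonyl group into an alcohol, which clears quinones and the reactive aldehydes that come from lipid peroxidation, and also changes steroids, prostaglandins and retinaldehyde. Several genes of both families are targets of Nrf2 (Nfe2l2), the transcription factor that is freed from Keap1 by oxidants and electrophiles. The colon epithelium meets such compounds from food, microbes and inflammation.

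Values are FPKM, which scale reads to gene length and library depth, so levels of different genes can be set side by side. Read totals recovered from the FPKM steps ranged from 5567988 to 15968416 per library, and between 15399 and 17127 genes per library were above 0. Libraries also differed in base composition. Genes rich in G and C read higher in 5 of them than in the other 7, which are called AT-rich. The 5 GC-rich libraries are replicate 0 of each group and replicate 1 of both treated groups. The scrapings carried epithelial markers in every library. The summed FPKM of 9 markers, among them Epcam, Cdh1 and Vil1, was 5600 to 9751 over the 12 libraries. In the test described below, 0 of these 9 markers passed in any comparison.

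The bases before the transcription start are shown for the 4 genes called higher with curcumin than in AOM/DSS. They are also shown for Akr1c12 and Akr1c13, whose sequences bear on how far their values can be told apart. Sequences are from RefSeq on GRCm38.p6, a later build than the mm9 named in the submitters' processing notes, and each is the 250 bases before the start, read 5′ to 3′ on the gene's strand. RefSeq promoters were matched for 8 of 9 genes. Akr1b3 was not matched. In the first 4 sequences capitals mark a match to 1 of 4 searched motifs, which occurs in Cbr1.
Cbr1 (chr16:93607587-93607836, plus strand): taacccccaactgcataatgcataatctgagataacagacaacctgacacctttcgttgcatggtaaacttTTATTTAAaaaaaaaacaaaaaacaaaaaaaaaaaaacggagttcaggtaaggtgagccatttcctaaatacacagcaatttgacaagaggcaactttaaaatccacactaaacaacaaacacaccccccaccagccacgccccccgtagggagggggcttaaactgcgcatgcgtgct
Cbr3 (chr16:93682969-93683218, plus strand): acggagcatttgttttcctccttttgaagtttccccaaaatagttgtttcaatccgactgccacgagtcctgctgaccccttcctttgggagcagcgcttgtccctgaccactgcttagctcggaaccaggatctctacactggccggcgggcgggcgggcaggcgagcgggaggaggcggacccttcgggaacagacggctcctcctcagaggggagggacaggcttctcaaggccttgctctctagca
Akr1b7 (chr6:34412112-34412361, plus strand): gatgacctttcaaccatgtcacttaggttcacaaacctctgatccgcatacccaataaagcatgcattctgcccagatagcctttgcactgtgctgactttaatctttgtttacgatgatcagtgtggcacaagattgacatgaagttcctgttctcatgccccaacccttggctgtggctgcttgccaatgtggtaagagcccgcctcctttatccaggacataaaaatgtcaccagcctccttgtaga
Akr1b8 (chr6:34353896-34354145, plus strand): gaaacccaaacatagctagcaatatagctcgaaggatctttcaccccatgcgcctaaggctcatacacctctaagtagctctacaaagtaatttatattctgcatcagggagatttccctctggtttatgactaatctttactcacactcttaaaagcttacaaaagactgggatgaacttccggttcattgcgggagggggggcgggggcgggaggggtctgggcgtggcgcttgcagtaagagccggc
In the next pair capitals mark bases that differ, or have no partner, in the alignment of the 2 sequences.
Akr1c12 (chr13:4279400-4279649, minus strand): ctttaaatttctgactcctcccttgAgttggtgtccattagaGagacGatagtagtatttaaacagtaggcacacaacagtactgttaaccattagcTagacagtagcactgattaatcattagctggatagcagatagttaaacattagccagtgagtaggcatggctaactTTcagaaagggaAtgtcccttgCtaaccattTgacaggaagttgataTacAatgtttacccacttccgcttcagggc
Akr1c13 (chr13:4190937-4191186, plus strand): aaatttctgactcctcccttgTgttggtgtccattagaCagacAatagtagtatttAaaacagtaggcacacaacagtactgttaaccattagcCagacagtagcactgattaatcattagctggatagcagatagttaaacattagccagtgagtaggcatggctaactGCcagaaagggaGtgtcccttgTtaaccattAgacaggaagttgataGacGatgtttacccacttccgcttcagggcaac
Both strands of the 250 bases before and 50 after each start were searched for TGACNNNGC (the core of the antioxidant response element, bound by Nrf2), TGACTCA (AP-1), CACGTG (E-box) and TTANNTAA. The last is a loose pattern that includes the core bound by PAR bZIP factors such as Dbp and Tef. Its middle 2 bases are free, so a match need not be such a core. Cbr1 held TTATTTAA, a match to this loose pattern, whose first base lies 179 bases before the start. Akr1c19 held GCTTAGTCA, a match to the antioxidant core on the other strand just after its start. The other matched promoters held none of the 4 in this window, which says nothing about sites elsewhere. Over all 32851 promoters of the table, 12.4% held the antioxidant core, 5.2% the AP-1 site, 7.15% the E-box and 6% the pattern TTANNTAA. The upstream sequences of Akr1c12 and Akr1c13 were identical in 235 of 247 aligned columns (95.1%), while those of Akr1b7 and Akr1b8 aligned over 158 columns at 63.3%.

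With curcumin, 4 of the 9 genes rose against AOM/DSS: Cbr1, Cbr3, Akr1b7 and Akr1b8. Against control, 3 of them rose: Cbr3, Akr1b7 and Akr1b8. Between AOM/DSS alone and control 0 of 9 passed the test, although the mean was lower in AOM/DSS in 8 of 9. The 4 Akr1c genes and Akr1b3 did not pass the test in any comparison. The test was limma on log2(FPKM + 1) with Benjamini-Hochberg adjustment over all 12052 genes, at an adjusted p below 0.05. In bulk samples, a change in the share of cells that make an mRNA and a change in mRNA per cell cannot be told apart.

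**Figure D1:**
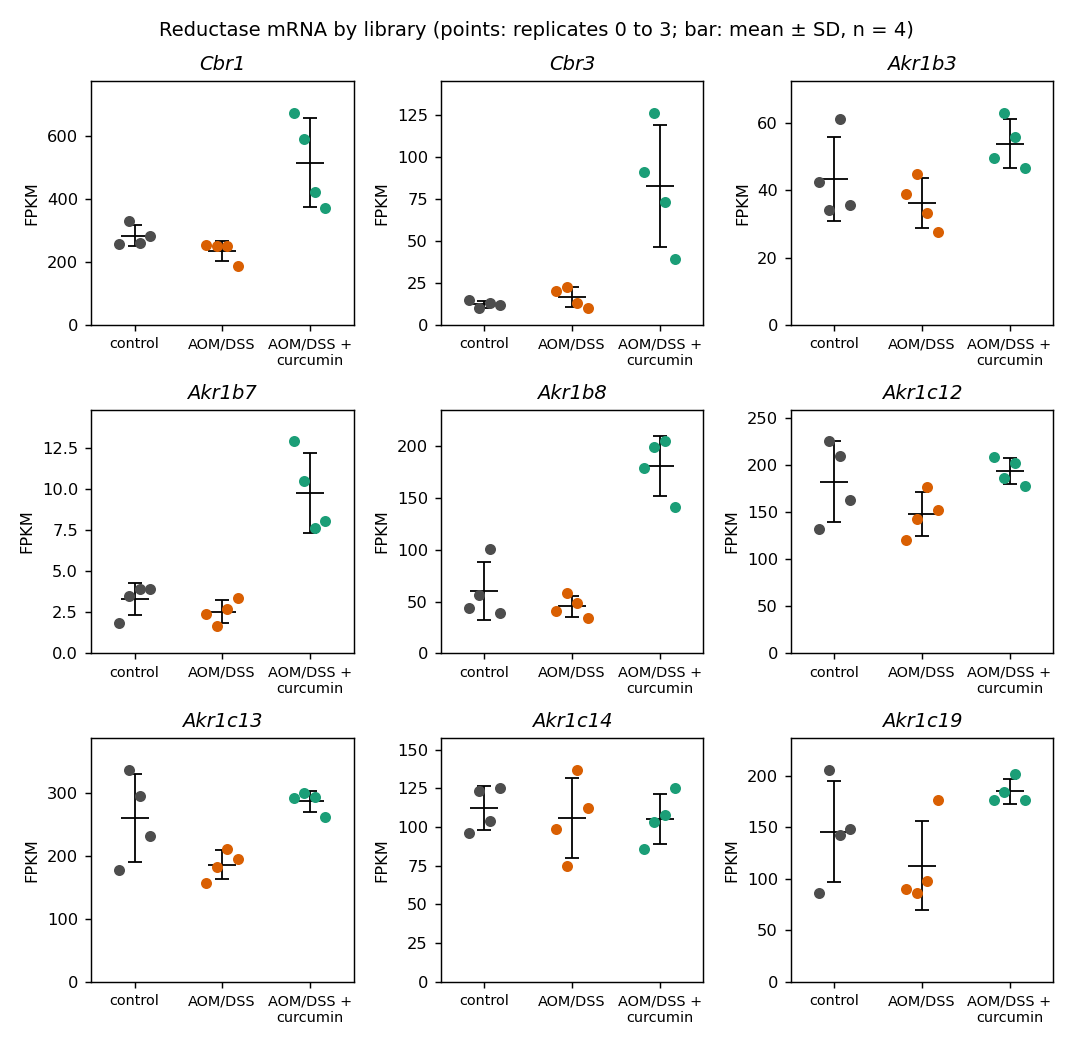
FPKM of each gene in the 12 libraries, 1 panel per gene with its own axis from 0. Points are replicates 0 to 3 from left to right in each group, and bars are the mean ± SD (n = 4). The curcumin points of Cbr1, Cbr3, Akr1b7 and Akr1b8 lie above all points of both other groups, while those of Akr1c14 overlap them.

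Against AOM/DSS, 4 of 9 genes were called higher with curcumin, where 0.73% of all tested genes were. In 8 of 9 all 4 curcumin libraries lay above all 4 AOM/DSS libraries, which held for 4.95% of tested genes. The exception was Akr1c14. The mean of log2(FPKM + 1), by which means are compared in every such count here, was higher in 9 of 9, and in 49.1% of all tested genes. For Akr1c14 this difference (0.02) turned negative (-0.05) under either rescaling tried, and its mean FPKM was not higher (105 beside 106). The median log2 difference of the 9 was 0.77, beside -0.0054 over all tested genes. Against control, 3 of 9 were called higher, where 0.0913% of all tested genes were. In 4 of 9 the curcumin libraries lay above all control libraries, which held for 3.72% of tested genes. The median log2 difference was 0.41, beside 0.0138.

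For AOM/DSS against control, 0 of 9 were called, where 1.27% of all tested genes were called in either direction. At an unadjusted p below 0.05, 1 of 9 passed, Akr1c13, and so did 1622 of all 12052 tested genes. A fit of limma voom to the recovered reads also called 0. The mean was lower in 8 of 9 (all but Cbr3), against 47.2% of all tested genes, and the median log2 difference was -0.27 beside 0.0151. The 3 comparisons share libraries pairwise, so a low AOM/DSS value enters both the first and the second.

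**Figure D2:**
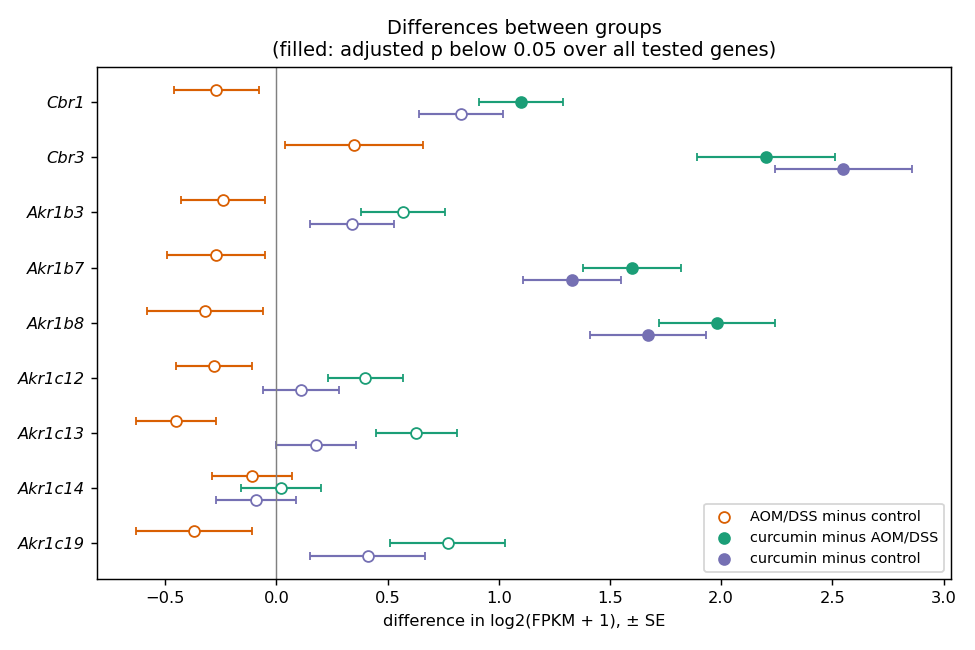
Difference in log2(FPKM + 1) between groups for each gene, with its standard error, from limma over 12052 genes. Filled points have an adjusted p below 0.05. Filled points are found for 4 genes in curcumin minus AOM/DSS and for 3 in curcumin minus control, and the differences of AOM/DSS minus control lie between -0.45 and 0.35.

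Cbr1, which in humans reduces quinones, prostaglandin E2 and anthracycline drugs, was the most abundant of the 9 in every group by its mean, and stood at percentile 98 of all tested genes by its mean FPKM over the 12 libraries. Its FPKM was 258, 330, 262 and 284 in control replicates 0 to 3, 254, 250, 251 and 187 in AOM/DSS, and 675, 593, 424 and 372 in curcumin. All 4 curcumin libraries were above the 8 others, and all 4 AOM/DSS libraries were below all 4 controls, although 254 and 258 nearly meet. The mean rose from 236 ± 32.4 in AOM/DSS to 516 ± 142 (SD, n = 4) with curcumin, a log2 difference of 1.10 (SE 0.19, adjusted p = 0.0155). Without curcumin replicate 1 the adjusted p was 0.0547, at a log2 difference of 1.02. Against control (284 ± 32.9) the difference of 0.83 did not pass the test (SE 0.19, adjusted p = 0.108), and with quantile scaling its adjusted p was 0.0419. The difference between AOM/DSS and control was -0.27 (SE 0.19, adjusted p = 0.581).

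Cbr3, the close relative of Cbr1 on the same chromosome (16), whose human counterpart reduces a narrower range of carbonyl compounds, had the largest rise of the 9. Its FPKM was 14.5, 9.79, 12.9 and 11.7 in control, 20.1, 22.5, 13.0 and 10.2 in AOM/DSS, and 91.1, 126, 72.9 and 39.1 in curcumin. The curcumin libraries spread widely, with a highest value 3.23 times the lowest, but the lowest was still above the highest of the other 8 libraries. The mean of 82.3 ± 36.3 was 5.01 times that of AOM/DSS (16.4 ± 5.82) and 6.73 times that of control (12.2 ± 1.98). The log2 difference was 2.20 (SE 0.31, adjusted p = 0.00603) against AOM/DSS and 2.55 (SE 0.31, adjusted p = 0.00598) against control. Ordered by the size of the rise among the 12052 tested genes, Cbr3 was number 4 in the first comparison and number 2 in the second. Both calls held when any 1 of the 12 libraries was left out. AOM/DSS and control overlapped, with a log2 difference of 0.35 (SE 0.31, adjusted p = 0.683).

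Within a library, the ratio of Cbr3 to Cbr1 in FPKM was 0.105 to 0.213 with curcumin, 0.0517 to 0.0902 in AOM/DSS and 0.0297 to 0.0562 in control. The curcumin ratios were above all others, so Cbr3 made up more of the pair there. Each of these 2 differences had p = 0.0286 in a two-sided exact permutation test, the smallest that 4 against 4 can give, and an adjusted p of 0.0714 over 15 ratio tests, which does not pass. These ratios were chosen after the values were seen.

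Akr1b8, an aldo-keto reductase of retinaldehyde and lipid-derived aldehydes that is often set beside human AKR1B10, had FPKM of 43.9, 56.8, 101 and 38.6 in control, 41.2, 58.1, 48.6 and 33.8 in AOM/DSS, and 179, 199, 205 and 141 in curcumin. The 4 curcumin libraries were above the rest, and control replicate 2 stood highest of the other 8. The mean rose from 45.4 ± 10.4 in AOM/DSS to 181 ± 28.8 with curcumin, a ratio of 3.99 and a log2 difference of 1.98 (SE 0.26, adjusted p = 0.0037). This call held in all 12 fits that left out a library. Against control (60 ± 28.1) the difference was 1.67 (SE 0.26, adjusted p = 0.0357). That call held in 5 of 12 fits that left out a library. It was lost, at adjusted p from 0.0565 to 0.131, without control replicates 0, 1 or 3, AOM/DSS replicate 2 or curcumin replicates 0, 1 or 2, while the log2 difference over all 12 fits stayed between 1.49 and 1.94. With no filter on low values it was also lost (adjusted p = 0.073). AOM/DSS differed from control by -0.32 (SE 0.26, adjusted p = 0.643).

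Akr1b7, first known in mice as a protein of the vas deferens and an aldehyde reductase of steroid-making tissue, was the least abundant of the 9. Its FPKM was 1.87, 3.47, 3.91 and 3.93 in control, 2.37, 1.66, 2.72 and 3.38 in AOM/DSS, and 12.9, 10.5, 7.60 and 8.06 in curcumin, from 18 to 167 reads per library. All curcumin values were above the 8 others, and the other groups overlapped. The mean rose from 2.53 ± 0.717 in AOM/DSS to 9.77 ± 2.46, a log2 difference of 1.60 (SE 0.22, adjusted p = 0.00422), and the call held in all 12 fits that left out a library. Against control (3.3 ± 0.974) the difference was 1.33 (SE 0.22, adjusted p = 0.0386). That call held in 4 of 12 such fits, and was lost, at adjusted p from 0.0565 to 0.119, without control replicates 0, 1 or 3, AOM/DSS replicate 2 or any 1 of the 4 curcumin replicates. It was also lost with a pseudocount of 0.1 (adjusted p = 0.0507) and with no filter on low values (adjusted p = 0.085). An annotated gene on the opposite strand, Gm13857, covers 27.2% of the exon bases of Akr1b7, and since no strand setting is stated, reads of the 2 cannot be told apart there.

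Akr1b3 is aldose reductase, which turns glucose into sorbitol and can form prostaglandin F2alpha. Its FPKM was 42.4, 34.1, 61.3 and 35.6 in control, 39.0, 45.0, 33.3 and 27.6 in AOM/DSS, and 49.7, 63.1, 56.0 and 46.6 in curcumin. The curcumin libraries were above all AOM/DSS libraries and overlapped control. None of the 3 differences passed the test: 0.57 (SE 0.19, adjusted p = 0.19) for curcumin against AOM/DSS, 0.34 (adjusted p = 0.513) against control, and -0.24 (adjusted p = 0.639) for AOM/DSS against control. The value cannot be credited to Akr1b3 alone. Its recovered reads equalled those of the symbol Gm6644 in 9 of 12 libraries and differed by 1 read in the other 3, and 86.2% of the 50-base windows of its transcript occur in other genes. Within a library, the ratio of Akr1b8 to Akr1b3 was 3.03 to 3.66 with curcumin, 1.06 to 1.46 in AOM/DSS and 1.04 to 1.66 in control, with p = 0.0286 for each of the curcumin differences in the same exact permutation test and 0.0714 after adjustment.

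The Akr1c genes lie together on chromosome 13 and encode hydroxysteroid dehydrogenases, which reduce or oxidise the keto and hydroxyl groups of steroids. Akr1c13 was the most abundant of them, with FPKM of 177, 337, 295 and 232 in control, 157, 182, 211 and 195 in AOM/DSS, and 292, 300, 294 and 262 in curcumin. The curcumin libraries were above all AOM/DSS libraries and inside the control range. The difference of 0.63 against AOM/DSS did not pass the test (SE 0.18, adjusted p = 0.126), and with library weights its adjusted p was 0.0396. AOM/DSS differed from control by -0.45 (SE 0.18, unadjusted p = 0.026, adjusted p = 0.287). Curcumin differed from control by 0.18 (adjusted p = 0.723).

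Akr1c12, the near twin of Akr1c13, had FPKM of 132, 225, 209 and 163 in control, 120, 142, 176 and 152 in AOM/DSS, and 208, 186, 202 and 178 in curcumin. Here too the curcumin libraries were above AOM/DSS and inside the control range, and none of the differences passed: 0.40 (SE 0.17, adjusted p = 0.299) against AOM/DSS, 0.11 (adjusted p = 0.832) against control, and -0.28 (adjusted p = 0.508) for AOM/DSS against control. The ratio of Akr1c12 to Akr1c13 was 0.764 to 0.832 in AOM/DSS, above both control (0.668 to 0.744) and curcumin (0.62 to 0.711). The log2 difference of this ratio was 0.16 between AOM/DSS and control and -0.23 between curcumin and AOM/DSS, each with an exact permutation p of 0.0286 and an adjusted p of 0.0714. Their longest transcripts were identical in 94.5% of 1262 aligned columns and shared 28.6% of 50-base windows, so the split of reads between them is uncertain.

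Akr1c19, a less studied member of the cluster, had FPKM of 85.8, 206, 143 and 148 in control, 90.1, 86.3, 98.1 and 177 in AOM/DSS, and 177, 184, 202 and 177 in curcumin. AOM/DSS replicate 3 stood apart from its group, just below the lowest curcumin library (both round to 177), and control ranged across both. The difference between curcumin and AOM/DSS was 0.77 (SE 0.26, adjusted p = 0.185), that between curcumin and control was 0.41 (adjusted p = 0.556), and that between AOM/DSS and control was -0.37 (adjusted p = 0.584). In the GENCODE model of Akr1c19, the pseudogene Marcksl1-ps4 covers 4.94% of 5892 exon bases on the same strand. The deposited values used a shorter model, since FPKM per read was close to that of Akr1c12, whose transcript has 1261 bases. In curcumin replicate 0, 2056 reads gave 177 FPKM for Akr1c19, and 2394 reads gave 208 FPKM for Akr1c12. Whether the overlap bears on these values is not known.

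Akr1c14, a 3-alpha-hydroxysteroid dehydrogenase, differed from the other 8 in that its groups overlapped in every comparison. Its FPKM was 96.1, 123, 104 and 125 in control, 98.5, 75.0, 137 and 112 in AOM/DSS, and 85.6, 103, 108 and 125 in curcumin. The group means were 112 ± 14.3, 106 ± 25.8 and 105 ± 16.1. The log2 differences were -0.11 for AOM/DSS against control (adjusted p = 0.834), 0.02 for curcumin against AOM/DSS (adjusted p = 0.984) and -0.09 for curcumin against control (adjusted p = 0.869), each with an SE of 0.18.

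In control, the order of the levels by mean FPKM was Cbr1 (284), Akr1c13 (261), Akr1c12 (182), Akr1c19 (146), Akr1c14 (112), Akr1b8 (60), Akr1b3 (43.4), Cbr3 (12.2) and Akr1b7 (3.3). Neighbours from Cbr1 down to Akr1b3 overlapped in their library ranges, while Cbr3 lay below all of Akr1b3 and Akr1b7 below all of Cbr3. With curcumin the order by mean was Cbr1, Akr1c13, Akr1c12, Akr1c19, Akr1b8, Akr1c14, Cbr3, Akr1b3 and Akr1b7. There Cbr1 (372 to 675) lay above every library of Akr1c13 (262 to 300), and Akr1b8 (141 to 205) lay above every library of Akr1c14 (85.6 to 125) and overlapped Akr1c12 and Akr1c19. Cbr3 (39.1 to 126) overlapped both of its neighbours.

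**Figure D3:**
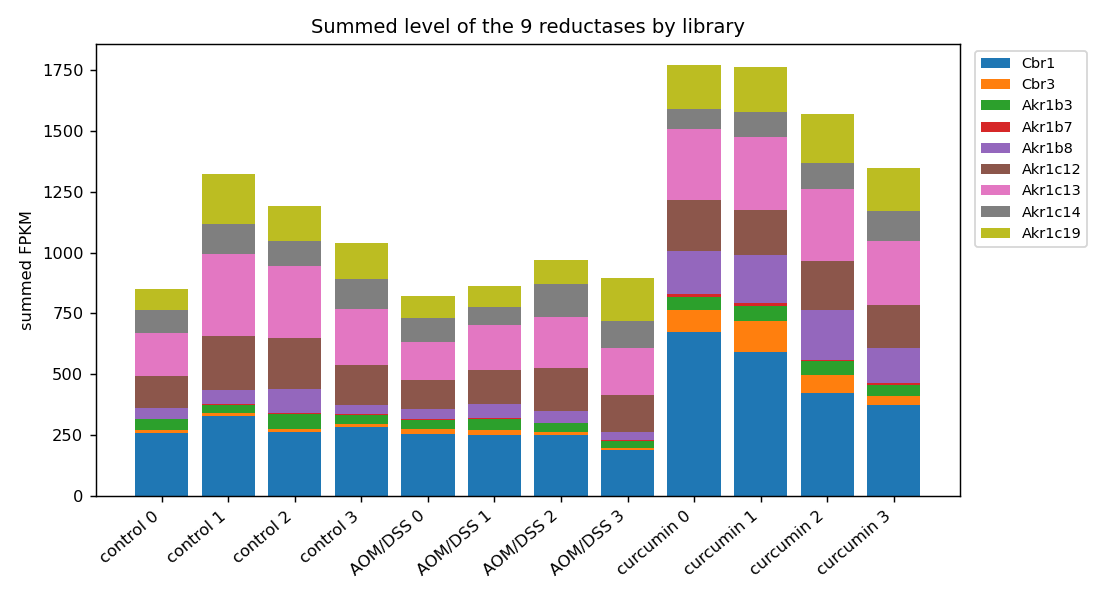
Summed FPKM of the 9 genes in each library, stacked by gene. The sum is 852 to 1326 in control, 823 to 971 in AOM/DSS and 1349 to 1770 in curcumin, and the blocks of Cbr1, Cbr3 and Akr1b8 are taller in the 4 curcumin libraries.

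Summed over the 9 genes, the level was 1103 ± 203 FPKM in control, 889 ± 62.8 in AOM/DSS and 1614 ± 199 with curcumin (SD, n = 4), and the lowest curcumin library (1349) was above the highest of the others (1326). Cbr1 held 26.1% ± 3.51 of the sum in control, 26.7% ± 4.39 in AOM/DSS and 31.6% ± 5.3 with curcumin, with overlapping ranges. Akr1b8 held 11.2% ± 1.3 with curcumin against 5.13% ± 1.22 in AOM/DSS and 5.39% ± 2.12 in control, and its curcumin range of 10.1 to 13 did not meet the others. Cbr3 held 4.96% ± 1.75 against 1.88% ± 0.753 and 1.16% ± 0.399. The share of Akr1c14 was 6.69% ± 1.89 with curcumin, beside 11.8% ± 2.26 in AOM/DSS and 10.3% ± 1.58 in control. These shares are a description and were not tested.

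The base composition of the libraries moved with some of these values. Among the curcumin libraries, the GC-rich pair (replicates 0 and 1) had the highest Cbr1, Cbr3 and Akr1b7. Fitted in the GC-rich libraries alone, a split chosen after seeing the data, curcumin minus AOM/DSS was 1.32 for Cbr1, 2.28 for Cbr3, 2.08 for Akr1b7 and 1.93 for Akr1b8 on the log2 scale. In the AT-rich libraries alone the differences were 0.87, 2.12, 1.13 and 2.04 in the same order. All 8 are positive, which was fixed in advance, since every curcumin library lay above every AOM/DSS library for these 4 genes. The fits, of 2 against 2 libraries, called 1 of the 9 genes (Cbr3) and 0 of the 9 at an adjusted p below 0.05. At an unadjusted p below 0.05, 7 and 5 of the 9 passed, beside 1298 and 1122 of all 12052 tested genes. Curcumin minus control was 2.80 and 2.13 for Cbr3, 2.08 and 1.48 for Akr1b8 and 2.14 and 0.89 for Akr1b7, in the GC-rich and AT-rich libraries. The GC-rich set has a single control library, taken to vary like the other groups. With the GC class as a covariate in the fit of all 12 libraries, the same counts of 4 and 3 genes were called.

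**Figure D4:**
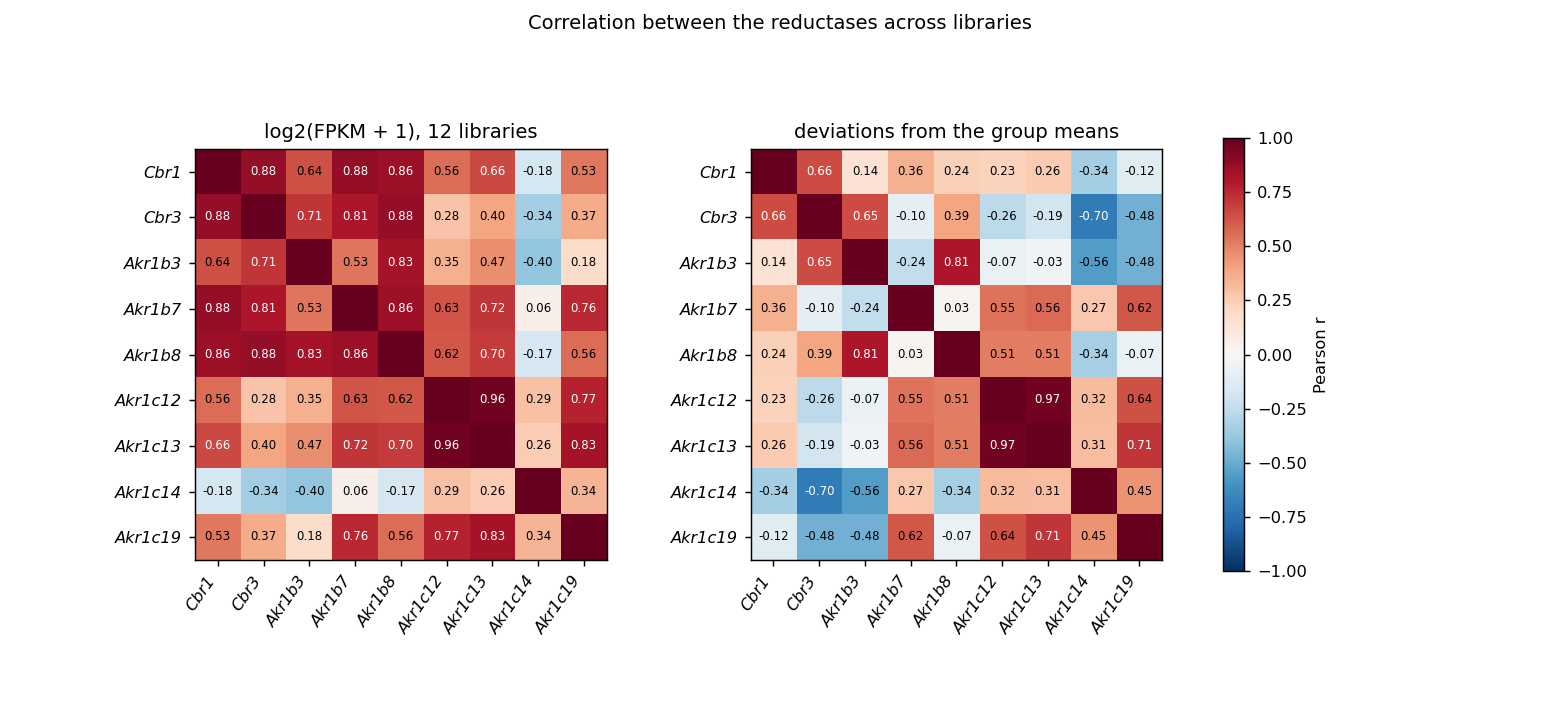
Pearson r between each pair of the 9 genes, of log2(FPKM + 1) over 12 libraries on the left and of deviations from the group means on the right. Colours run from -1 (blue) to 1 (red). Akr1c12 and Akr1c13 stay at 0.96 and 0.97, while Akr1b7 and Akr1b8 go from 0.86 to 0.03.

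Across the 12 libraries the 4 genes called with curcumin correlated with each other, with Pearson r of log2(FPKM + 1) from 0.81 to 0.88. Once the group means were taken away, r fell to 0.66 for Cbr1 and Cbr3, 0.39 for Cbr3 and Akr1b8, 0.36 for Cbr1 and Akr1b7, 0.24 for Cbr1 and Akr1b8, 0.03 for Akr1b7 and Akr1b8 and -0.10 for Cbr3 and Akr1b7. Akr1c12 and Akr1c13 kept 0.97, Akr1b3 and Akr1b8 kept 0.81, and Akr1c13 and Akr1c19 kept 0.71. The lowest value was -0.70 between Cbr3 and Akr1c14. These points share libraries, depth and base composition, and close relatives can share reads, so the values are a description without a test.

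Among 10550 other tested genes with a mean of at least 2 FPKM, the most alike to each gene over the 12 libraries were found by Pearson r. For Cbr1 they were Mycbpap (0.942), ChkbCpt1b (0.923) and Idh3b (0.922). For Cbr3 they were Izumo4 (0.924), the glutathione transferase Gstp2 (0.921) and Snora64 (0.920). For Akr1b7 they were Ppapdc1b (0.960), Atraid (0.943) and Mgst2 (0.939), a microsomal glutathione transferase. Mgst2 was named for its likeness to Akr1b7, which rose with curcumin, so a rise of its own was largely fixed by that choice. Mgst2 went from 175 ± 15.3 FPKM in AOM/DSS to 325 ± 54.3 with curcumin (log2 difference 0.88, SE 0.15, adjusted p = 0.0149). It was also called against control (0.93, adjusted p = 0.0383). The first call was lost without curcumin replicate 2 (adjusted p = 0.0524), and the second held in 6 of 12 fits that left out a library (control replicates 1 or 2, AOM/DSS replicates 0, 1 or 3, curcumin replicate 3), with an adjusted p up to 0.14 in the others, and in 9 of 12 alternatives that kept all libraries. For Akr1b8 they were Cfap36 (0.948), Surf2 (0.929) and Rab26os (0.907). Of the genes most alike to Cbr1, Cbr3, Akr1b7 and Akr1b8, all chosen in this way, Mycbpap and Surf2 were also called for curcumin against AOM/DSS. Their adjusted p by limma was 0.0126 and 0.0361. The others besides Mgst2 were not called. Akr1b3 had Gm6644, whose reads match its own within 1 read, then 9230105E05Rik (0.897) and Ten1 (0.896).

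In the Akr1c cluster, Akr1c12 was most like Akr1c13 (0.963), Esd (0.961) and Serpinb6a (0.956), and Akr1c13 most like Akr1c12, Etfa (0.930) and Esd (0.926). Akr1c14 was most like Foxj3 (0.962), Sp3 (0.960) and Fbxo11 (0.958). Akr1c19 was most like Car1 (0.938), a carbonic anhydrase of colonocytes, then Tsacc (0.908) and Clec2d (0.889). In AOM/DSS, Car1 was 419, 447 and 840 FPKM in replicates 0 to 2 and 2204 in replicate 3, the same library in which Akr1c19 was high.

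Other enzymes of carbonyl and aldehyde handling were read from lists of related genes. Of 16 tested other reductases, 0 were called for curcumin against AOM/DSS and 1 was called higher against control, the quinone reductase Nqo1, a standard Nrf2 target. Its FPKM was 13.9, 24.2, 15.8 and 13.7 in control, 22.8, 14.4, 25.3 and 27.4 in AOM/DSS, and 49.5, 48.5, 59.9 and 30.4 in curcumin. All curcumin libraries were above the 8 others. The log2 difference was 1.42 against control (SE 0.24, adjusted p = 0.0447) and 1.03 against AOM/DSS (SE 0.24, adjusted p = 0.0647), and the call against control held in 4 of 12 fits that left out a library (control replicate 1, AOM/DSS replicates 1 or 3, curcumin replicate 3), with an adjusted p up to 0.166 in the others. It also held in 8 of 12 alternatives that kept all libraries, with an adjusted p up to 0.125 in the others. The abundant aldehyde reductase Akr1a1 stood at 361 ± 58.6, 382 ± 20.5 and 382 ± 53.3 FPKM in the 3 groups and did not pass. Akr1b10 stood at 5.78 ± 1.44, 7.43 ± 1.49 and 6.12 ± 0.724.

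Of 18 tested genes of aldehyde oxidation and conjugation, 15 were higher in mean with curcumin than in AOM/DSS. Over all tested genes 49.1% were higher in mean and 0.73% were called higher. Of the 18, 1 was called, Aldh1a7, an aldehyde dehydrogenase close to Aldh1a1. Its FPKM was 9.53, 12.2, 9.43 and 11.5 in control, 6.92, 4.53, 8.63 and 7.05 in AOM/DSS, and 20.8, 22.0, 20.7 and 21.0 in curcumin. The curcumin libraries were close to each other and above the rest, and AOM/DSS was below control in all libraries. The log2 difference was 1.53 against AOM/DSS (SE 0.15, adjusted p = 0.000944) and 0.93 against control (SE 0.15, adjusted p = 0.0416), the latter called in 4 of 12 fits that left out a library, those without an AOM/DSS replicate, with an adjusted p up to 0.14 in the others, and in 8 of 12 alternatives that kept all libraries. AOM/DSS minus control was -0.61 (adjusted p = 0.0768).

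Of 22 tested genes of the Nrf2 system, 18 were higher in mean with curcumin than in AOM/DSS and 4 were lower. Their median log2 difference was 0.19. Over all tested genes 49.1% were higher in mean and 0.73% were called higher. Of the 22, 1 was called, Gclc, the catalytic subunit of the first enzyme of glutathione synthesis. Its FPKM was 28.1 ± 1.37 in control, 21.8 ± 3.57 in AOM/DSS and 44.5 ± 15 with curcumin, a log2 difference of 0.96 against AOM/DSS (SE 0.19, adjusted p = 0.0284). That call was lost in 4 of 12 fits that left out a library (AOM/DSS replicates 0 or 1, curcumin replicates 0 or 2), at adjusted p up to 0.0781, and also with no filter (adjusted p = 0.0516), a common sum (adjusted p = 0.0606) or the compared groups alone (adjusted p = 0.0829). Nfe2l2 itself stood at 112 ± 18.2, 97.3 ± 25.9 and 99.8 ± 16.9 FPKM, and its repressor Keap1 at 14.4 ± 1.63, 16.5 ± 1.34 and 15.7 ± 1.85. Heme oxygenase Hmox1 stood at 2.01 ± 0.696, 2.41 ± 1.07 and 3.26 ± 0.509. Gclm stood at 33 ± 0.941, 32.8 ± 5.46 and 43.9 ± 3.46, with all curcumin libraries above all controls. Its log2 difference between curcumin and AOM/DSS was 0.42 (SE 0.12, adjusted p = 0.116). Srxn1 stood at 67.2 ± 18.2, 57.7 ± 9.24 and 86.6 ± 12.7, with all curcumin libraries above all AOM/DSS libraries (0.58, SE 0.20, adjusted p = 0.191). None of Nfe2l2, Keap1, Hmox1, Gclm and Srxn1 passed the test in any comparison. Release of Nrf2 from Keap1 was not measured.

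Of 17 tested genes of steroid metabolism, 1 was called for curcumin against AOM/DSS, Hsd3b7, a hydroxysteroid dehydrogenase of bile acid synthesis, from 19.2 ± 0.726 to 28.7 ± 1.53 FPKM (log2 difference 0.55, SE 0.10, adjusted p = 0.0157). The call was lost without curcumin replicates 0 or 2 (adjusted p = 0.0515 and 0.0524) and with a common sum (adjusted p = 0.051). Nr3c2, the mineralocorticoid receptor, fell by 0.78 on the log2 scale in AOM/DSS against control (SE 0.16, adjusted p = 0.0394), a call held only without control replicate 2 or AOM/DSS replicates 1 or 2 when 1 library was left out (adjusted p up to 0.14 in the others), and in 8 of 12 alternatives that kept all libraries (up to 0.129 in the others). Of 20 tested nuclear receptors and their targets, Nr1i3, the xenobiotic receptor CAR, rose from 3.25 ± 1.35 to 9.59 ± 1.41 FPKM between AOM/DSS and curcumin (1.36, SE 0.23, adjusted p = 0.0155), and lost the call without curcumin replicates 0, 1 or 2 (adjusted p from 0.0524 to 0.0536). Vdr, the vitamin D receptor, fell by 0.83 in AOM/DSS against control (SE 0.11, adjusted p = 0.00366), with or without any 1 library. Mylip, a ligase that degrades lipoprotein receptors, fell by 0.67 with curcumin against control (SE 0.11, adjusted p = 0.0441), a call held only without control replicate 2 or AOM/DSS replicates 0 or 1 when 1 library was left out (adjusted p up to 0.166 in the others), and in 7 of 12 alternatives that kept all libraries (up to 0.112 in the others).

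**Figure D5:**
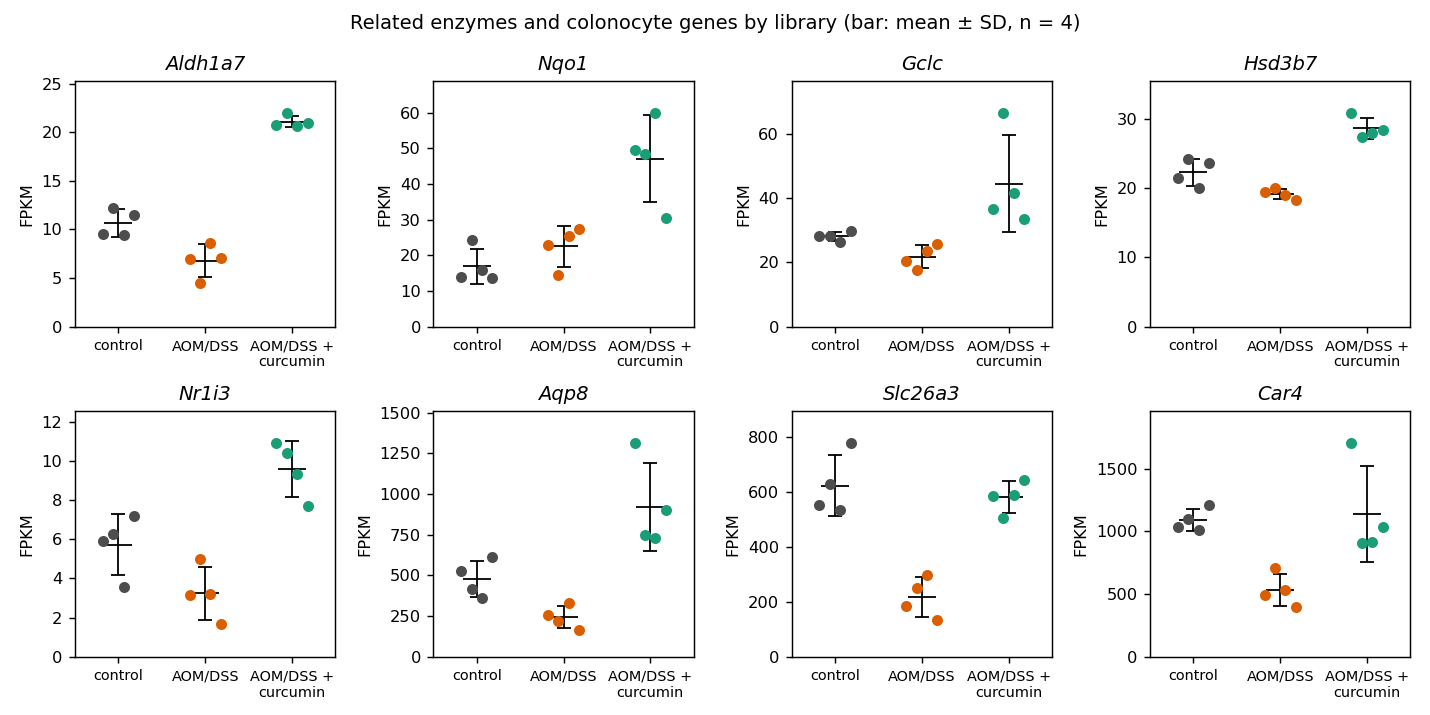
FPKM by library of 5 related enzymes and receptors (Aldh1a7, Nqo1, Gclc, Hsd3b7, Nr1i3) and of 3 colonocyte genes (Aqp8, Slc26a3, Car4), each axis from 0. Points are replicates 0 to 3 and bars are the mean ± SD (n = 4). The AOM/DSS points of Slc26a3 lie below those of both other groups, and the curcumin points of Aldh1a7 lie above them.

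Markers of mature colonocytes were called in both comparisons that involve AOM/DSS. Reductases were called in both that involve curcumin, so for curcumin against AOM/DSS both sets were called. Of 10 tested, 5 fell in AOM/DSS against control, where 98 of all 12052 tested genes were called lower. With curcumin against AOM/DSS 5 rose, where 88 of all tested genes were called higher. Between curcumin and control 0 were called. Only 17 of all tested genes were called there, so this 0 does not show that the markers were alike. Slc26a3, the chloride and bicarbonate exchanger, was 624 ± 111 FPKM in control, 217 ± 72.8 in AOM/DSS and 582 ± 57 with curcumin, log2 differences of -1.57 (SE 0.22, adjusted p = 0.00433) and 1.48 (SE 0.22, adjusted p = 0.00792). The water channel Aqp8 rose by 1.92 with curcumin against AOM/DSS (SE 0.24, adjusted p = 0.00341), and all 4 of its curcumin libraries were also above all 4 controls (922 ± 271 beside 479 ± 111 FPKM), a difference of 0.93 that did not pass (SE 0.24, adjusted p = 0.149). The summed FPKM of the 10 was 4954 to 9905 in control, 3395 to 5058 in AOM/DSS and 6933 to 9931 with curcumin, and none was at 0. The part of colonocyte number in the reductases' differences was not tested in any comparison.

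Of 16 immune markers, 10 were tested and 0 were called. All 10 were higher in mean in AOM/DSS than in control, where 52.8% of all tested genes were. All 10 were lower with curcumin than in AOM/DSS, where 50.9% of all tested genes were. Sums over all 16 were 17.8 to 59.7 FPKM in control, 22.3 to 119 in AOM/DSS and 13.5 to 39.4 with curcumin. Stromal markers summed to 17.7 to 36.2, 17.1 to 50.2 and 14.6 to 20.8 FPKM over 17 genes. Of these, S100b was at 0 in every AOM/DSS library and Adipoq in every curcumin library. Red blood cell genes summed to 58.8 to 326, 17.5 to 326 and 25.9 to 37.1 over 5 genes. Of 8 goblet cell markers, 1, Spink4, was called, higher in AOM/DSS than in control, with sums of 4388 to 5988, 5508 to 8170 and 6978 to 8817. Of 4 tested small intestine markers Rbp2 was called, higher with curcumin than in AOM/DSS (1.58, SE 0.19, adjusted p = 0.00338). Of 6 distal colon Hox genes 0 were called. The part of these in the results was not tested.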

How the data were processed

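The deposited values are FPKM made by the authors, 1 file per library. Tools listed in the submitters' processing notes, without their roles, are featureCounts 1.5.1, TopHat2 2.1.1 with Bowtie2 2.2.6, DESeq2 1.14.1, Picard and R 3.4.0, on build mm9. Strand setting and annotation are not given in the sources used here. FPKM of 19233 genes above 0 were whole multiples of a step within 0.001, which gave reads for voom.

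Genes with FPKM of at least 1 in 4 or more libraries were tested with limma 3.58.1 in R 4.3.3, on log2(FPKM + 1), which understates changes of low genes. The model had a mean per group, an intensity trend and 9 residual degrees of freedom, and was checked on simulated data. Genes, lists and tests were chosen with earlier results of these data known. Named are all 9 genes, the 3 most alike to each, and list members past the threshold or among the 3 most abundant, in part. Mgst2, Akr1b10, Nfe2l2, Keap1, Hmox1, Gclm, Srxn1 and the cell type markers were given values after these were seen. Sequences came from RefSeq (GRCm38.p6), transcripts and overlaps from GENCODE on the same build, aligned with Biopython 1.88. Transcripts stood in for proteins.

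Alternatives changed pseudocount, filter, scaling, trend, weights, groups fitted, block, GC class and each library.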

Additional observations from a re-analysis of the deposited data

Results flagged for a closer look

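Of 207 groups of 4 libraries over 69 named genes, 6 had 1 library whose gap to the nearest other exceeded Dixon's 95% critical share of the group's range, which chance exceeds in about 1 of 20 groups. Cbr1 was 187 FPKM in AOM/DSS replicate 3, beside 250 to 254 in the other 3 libraries. Akr1c19 was 177 FPKM in the same library, beside 86.3 to 98.1. Fth1, the ferritin heavy chain, was 1113 FPKM in control replicate 1, beside 720 to 772. Nr3c2 was 35 FPKM in curcumin replicate 3, beside 29.3 to 30.1. Hsd17b2, which inactivates estradiol, was 238 FPKM in curcumin replicate 0, beside 149 to 159. Vdr was 136 FPKM in AOM/DSS replicate 2, beside 106 to 109.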

How the results depend on the processing

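None of the 9 genes was called for AOM/DSS against control under any of the 26 alternatives, and the 4 called for curcumin against AOM/DSS stayed 4, or 5 with library weights, under the other alternatives that kept all libraries. In the GC-rich libraries alone 1 was called and in the AT-rich alone 0. Against control the 3 became 1 with no filter. Each library class alone gave 0 there, and 0 of all genes, with 1 control in the GC-rich class, so these fits say nothing about the 3 calls. Whether equal replicate numbers mark a shared batch cannot be told from these values, since the numbers largely follow the base composition classes. The r of deviations from the group means ran from -0.333 to 0.456 in 12 same-number pairs, 6 of them over 0.1. In pairs of unlike number it ran from -0.458 to 0.499, and 4 of 12 libraries correlated best with their own number. With the replicate block, 0, 4 and 2 of the 9 genes were called in the first (AOM/DSS against control), second (curcumin against AOM/DSS) and the third comparison (curcumin against control), and 82, 86 and 2 of all genes, against 153, 130 and 17 without it. With the block Akr1b7, Nqo1 and Aldh1a7 lost their calls against control (adjusted p = 0.125 each), as did Mgst2 and Mylip (0.111 each), and Gclc its call against AOM/DSS (0.0691). All genes called, in the same order, were 288, 468 and 491 with library weights and 238, 272 and 40 with GC class as a covariate. Fitting the compared groups alone gave 54 and 85 in the first and second, and in the third 23. A pseudocount of 0.1 gave 11 in the third and no filter 7. The GC-rich libraries alone gave 7, 8 and 0 and the AT-rich 4, 1 and 0. In the third comparison, these classes had 1134 and 1015 genes at an unadjusted p below 0.05. Leaving out 1 library gave 53 to 201, 48 to 149 and 4 to 35 genes, and 0 to 0, 3 to 4 and 1 to 3 of the 9. The 11 higher and 6 lower calls of the third comparison became 7 and 6 with a common sum, 12 and 11 by quantiles and 10 and 13 with voom. The cause was not tested. Low read counts limit Akr1b7, and shared sequence limits Akr1b3, Akr1c12 and Akr1c13.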

Other observations

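Among the 14 tested genes of NADPH supply, 0 were called by limma in each comparison. These enzymes use NADPH, which was not itself measured. Few of all 12052 tested genes were called (153 between control and AOM/DSS, 130 between the treated groups, 17 between control and curcumin). With so few calls, this 0 does not show that the groups were alike. In AOM/DSS 10 of the 14 had a higher mean than in control, where 52.8% of all tested genes did. With curcumin 11 were higher than in control (52.5%), and 7 were higher than in AOM/DSS (49.1%). Tkt, transketolase, stood at 96.6 ± 9.25, 135 ± 14.3 and 125 ± 13.2 FPKM in control, AOM/DSS and curcumin, and its difference of 0.48 between AOM/DSS and control had an adjusted p of 0.0753. Of 12 tested genes of prostaglandin handling, 1 was called: Slco2a1, the prostaglandin transporter, fell by 1.04 on the log2 scale in AOM/DSS against control (SE 0.22, adjusted p = 0.0424), a call held only without control replicate 2 or curcumin replicate 0 when 1 library was left out (adjusted p up to 0.137 in the others), and in 10 of 12 alternatives that kept all libraries. Hpgd, which inactivates prostaglandins, stood at 228 ± 58.2, 176 ± 81 and 190 ± 30.5 FPKM and did not pass.

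Clock genes moved in both comparisons that involve AOM/DSS. Of 14 tested, 6 fell and 1 rose in AOM/DSS against control, where 98 and 55 of all 12052 tested genes did. With curcumin against AOM/DSS 5 rose and 2 fell, where 88 and 42 of all tested genes did. Between curcumin and control 0 were called. Only 17 of all tested genes were called there, so this 0 does not show that clock genes were alike. Dbp, a PAR bZIP factor, was 71 ± 27.5 FPKM in control, 12.2 ± 10.5 in AOM/DSS and 55.5 ± 14.6 with curcumin, log2 differences of -2.78 (SE 0.52, adjusted p = 0.0223) and 2.47 (SE 0.52, adjusted p = 0.0365). The first call was lost without control replicates 0 or 3 or AOM/DSS replicate 0 (adjusted p up to 0.0846), and the second held only without control replicates 0 or 1 or AOM/DSS replicates 1 or 2 (adjusted p up to 0.124 in the others). They held in 10 and 8 of 12 alternatives that kept all libraries. Tef, another of that family, was 57 ± 12.3, 16 ± 9 and 46 ± 4.5 FPKM. Nfil3, their repressor, rose in AOM/DSS (1.12, SE 0.24, adjusted p = 0.0469), a call held only without AOM/DSS replicate 1 when 1 library was left out (adjusted p up to 0.164 in the others), and in 5 of 11 alternatives that kept all libraries (up to 0.136 in the others). Between curcumin and AOM/DSS the Nfil3 difference was -1.41 (SE 0.24, adjusted p = 0.0157). That call held in 10 of 12 fits that left out a library and in 11 of 11 alternatives that kept all libraries. Nfil3 was low, at 3.25 ± 1.48 FPKM in AOM/DSS and 0.534 ± 0.205 with curcumin. The labels give no hour of sampling, and its part was not tested.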
